A study of Mus musculus with 8 samples.

Results

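The genes described here are 10 genes of the NRF2 oxidative stress response, taken by symbol from a table of 38392 genes. Expression was measured in cells sorted and labelled as eosinophils, from the mouse bone marrow and small intestine. Each of the 10 symbols matched 1 row of the table: Nfe2l2, Keap1, Hmox1, Gclc, Gclm, Txnrd1, Srxn1, G6pdx, Prdx1 and Sod2. RNA was sequenced from wild-type C57/BL6 female mice, with 4 libraries per tissue and no treatment in either group, and the age of the animals is not given per sample. Bone marrow cells were sorted as CD11b+Ly6G-Ly6C-SiglecF+SSChi, and intestinal cells as CD11b+MHC-II-SiglecF+SSChi. The intestine was stripped of its epithelium, digested with enzymes at body temperature and enriched on CD11b beads before the sort, whereas bone marrow was flushed out and its red cells were lysed without digestion or beads, so tissue and handling cannot be told apart. Libraries are named by their column (in bone marrow BM_1, BM_3, BM_4 and BM_5, in small intestine SI_6, SI_7, SI_10 and SI_11), because the columns give a tissue but match no single sample.

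NRF2, encoded by Nfe2l2, is a transcription factor that is made continuously and degraded while it is bound to KEAP1, an adaptor of a CUL3 ubiquitin ligase. Electrophiles and oxidants modify cysteines of KEAP1, NRF2 then accumulates, pairs with a small MAF protein and binds antioxidant response elements near its target genes. These targets make glutathione, keep thioredoxin and peroxiredoxins reduced, supply NADPH and break down haem, and NRF2 protein and its activity are set largely after transcription. RNA levels therefore describe the components of the pathway, and NRF2 protein was not measured in these data.

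Between bone marrow and small intestine the 10 genes went in opposite directions. Of the 10 genes, 4 were higher in the small intestine: Nfe2l2 itself, the thioredoxin genes Txnrd1 and Srxn1, and the mitochondrial dismutase Sod2. Another 4 were lower: Keap1, the glutathione synthesis subunit Gclm, the NADPH enzyme G6pdx and the haem-degrading enzyme Hmox1. Gclc and Prdx1 passed the test in neither direction. The test was limma on the deposited log2-scale values of all 8 libraries, 2-sided, with Benjamini-Hochberg adjustment over all 38392 genes and a threshold of 0.05.

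So many genes differed between these tissues that the number of calls is no property of the 10 genes. Of all genes, 22.0% were called higher and 12.9% lower in the small intestine, and of the 16215 genes that averaged 10 or more reads, which include all 10, the shares were 34.6% and 28.6%. The 4 libraries of one tissue did not overlap those of the other for 9 of the 10 genes, beside 34.3% of all genes and 67.4% of those with at least 10 reads. The median difference of the 10 genes was -0.09, beside 0.37 over all genes and 0.12 over genes with at least 10 reads. What follows is which of the genes differed, in which direction and by how much.

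Library totals ran from 11508002 to 21289164 reads assigned to genes. The labelled cell type was checked against marker genes before the results. The 10 eosinophil markers summed to 2790 to 4822 normalised counts in bone marrow and to 45858 to 61681 in the small intestine, where Alox15 had the most counts; 5 of them were higher there and 4 lower. Differences of the eosinophil markers ran from -4.28 to 7.83 on the log2 scale. The paper reports that bone marrow eosinophils had more transcripts of major granule proteins and eosinophil ribonucleases than intestinal ones. In bone marrow the 12 genes of neutrophil precursors, led by Mpo, took 3.83% to 4.56% of all reads, beside 0.0218% to 0.0380% for the eosinophil markers. By these sums the bone marrow libraries go against their label at the level of RNA, although the sort left out Ly6G+ cells. In the small intestine the neutrophil precursor genes took 0.00512% to 0.00706% of reads, with 11 of 12 lower and 1 higher there.

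Other marker lists differed between the tissues as well. The 10 epithelial markers, led by Krt19, were all higher in the small intestine and differed between its libraries, with sums of 22655 normalised counts in SI_6, 9319 in SI_7, 3391 in SI_10 and 4066 in SI_11, beside 188 to 205 in bone marrow. SI_6 and SI_7 thus stood apart, and for the genes named below a result is also given without them where its call or direction then changed. Macrophage and dendritic cell markers, led by Itgax, were higher for 10 of 12 (sums of 1036 to 1320 in bone marrow and 17068 to 25978 in the small intestine), and fibroblast markers, led by Col3a1, for 5 of 6 (5.74 to 61.4 and 154 to 724). Erythroid markers, led by Hbb-bs, were lower for 8 of 10 (1155 to 1401 and 107 to 207). Genes induced when tissue is dissociated, led by Dusp1, were higher for 11 of 12 and lower for 1 (1045 to 1450 and 59321 to 78395), and Hspb1 of that list had no read in any bone marrow library, which allows up to 3 reads in each. No other marker was at 0 throughout a tissue. Sorted cells were sequenced in bulk, so fewer cells of a type and less RNA per cell cannot be told apart, and the part of these lists in the differences below was not tested.

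The promoters of the genes were read first, because NRF2 acts through a short DNA motif. Windows from 250 bases before to 50 bases after the annotated start were taken from RefSeq for the GRCm38.p6 build, and searched on both strands for the core of the antioxidant response element, TGACNNNGC, which reads GCNNNGTCA on the other strand. Of the 10 genes, 8 had a window, and 6 of those 8 held the core (6 of their 10 windows), beside 14.0% of the 27025 genes and 12.4% of the 32851 windows with a sequence, and beside 13 of 68 genes of the wider pathway list described further on. The windows of Keap1 and Sod2 did not hold these letters, and no window was used for Hmox1 and Gclc. The matched stretches are shown in the direction of the gene with the motif in capitals, and positions count from the first transcribed base as +1.
Nfe2l2, chr2:75704865-75704913, minus strand: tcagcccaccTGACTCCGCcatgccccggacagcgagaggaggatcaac
Gclm, chr3:122245393-122245461, plus strand: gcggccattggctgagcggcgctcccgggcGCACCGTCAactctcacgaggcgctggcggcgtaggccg
Txnrd1, chr10:82859084-82859152, plus strand: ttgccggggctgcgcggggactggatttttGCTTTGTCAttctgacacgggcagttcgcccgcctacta
Srxn1, chr2:152105542-152105570, plus strand: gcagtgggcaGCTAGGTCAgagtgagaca
Prdx1, chr4:116685436-116685504, plus strand: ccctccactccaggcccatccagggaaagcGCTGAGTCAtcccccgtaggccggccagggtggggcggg
G6pdx, chrX:74428919-74428947, minus strand: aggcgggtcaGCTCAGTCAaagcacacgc
The core lay at -240 to -232 in Nfe2l2, -134 to -126 in Gclm, -133 to -125 in Prdx1 and -57 to -49 in G6pdx. It lay at -92 to -84 in Txnrd1, in the second of 3 windows and the only one of the 3 with a match, and at +29 to +37 in Srxn1. The stretches of Srxn1 and G6pdx fall in an annotated exon. In Prdx1 the match overlaps an AP-1 heptamer, TGAGTCA, which is the binding motif of FOS and JUN proteins. Of the 6 genes with the core, 3 were higher in the small intestine (Nfe2l2, Txnrd1 and Srxn1), 2 were lower (Gclm and G6pdx) and 1 was neither (Prdx1). A match of letters is a description of the sequence and no evidence of binding.

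Values are given below as normalised counts, which are reads divided by the size factor of the library, and differences on the deposited log2 scale, with their SE, are positive where the small intestine was higher. The genes are shown by library in the plot of normalised counts.

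**Figure D1:**
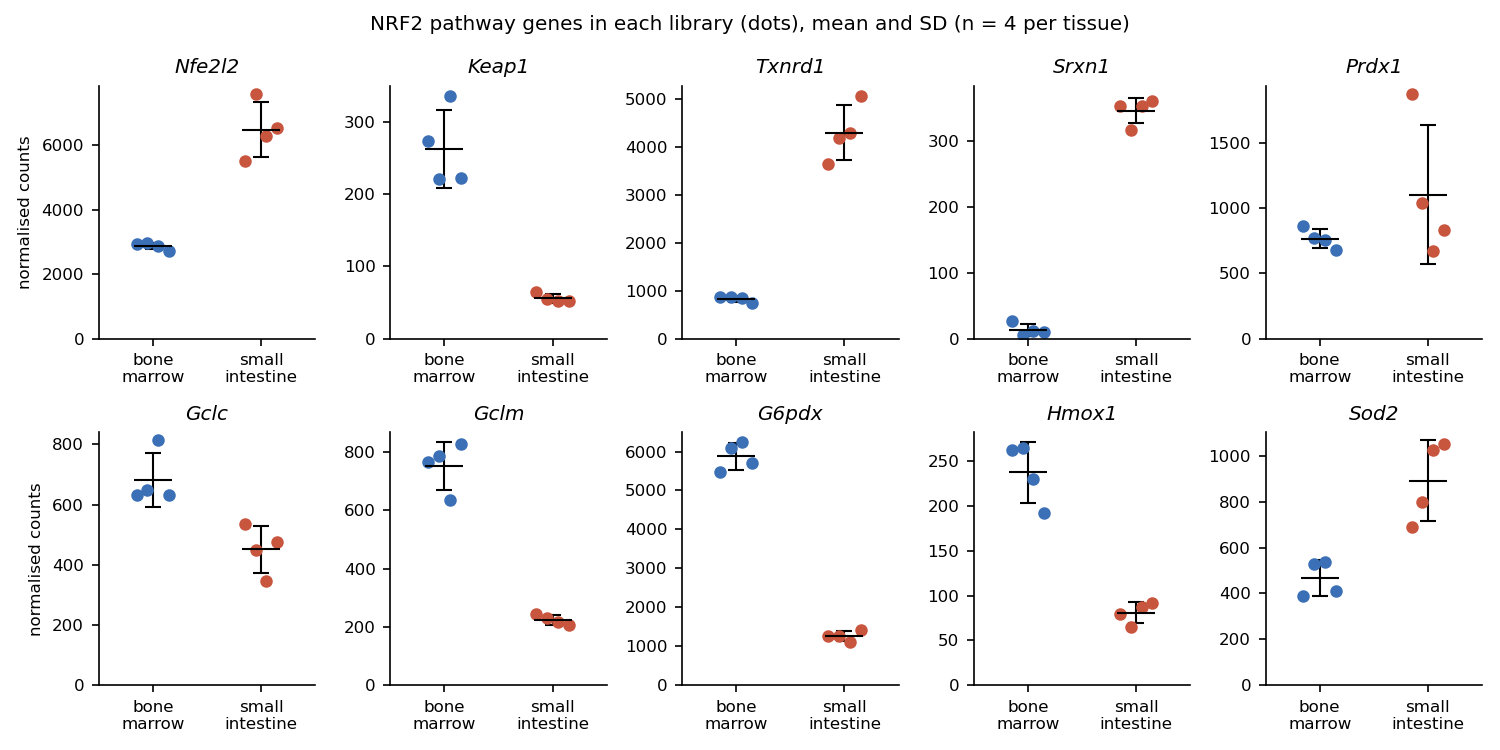
Normalised counts of the 10 genes (y axis, from 0, a separate scale for each gene) in bone marrow (blue) and small intestine (red). Dots are libraries, and the bar with its whiskers is the mean and SD of 4 libraries. The dots of both tissues are apart for every gene except Prdx1, where SI_10 lies below each bone marrow library.

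The regulator and its inhibitor moved apart. Nfe2l2 (ENSMUSG00000015839, chr2:75675513-75704641, minus strand) had 2949, 2959, 2878 and 2733 normalised counts in BM_1, BM_3, BM_4 and BM_5, and 5523, 7605, 6308 and 6536 in SI_6, SI_7, SI_10 and SI_11. Every intestinal library was above every bone marrow library, and the means were 2879.8 ± 104 and 6493 ± 859 (SD, n = 4 each), a 2.25-fold higher level with a difference of 1.16 ± 0.18 (limma, adjusted p = 0.00115). When each library was instead centred on its median over all genes, the difference was 0.26 ± 0.46 and the call was lost. It held with centring over genes with at least 10 reads (1.10, limma, adjusted p = 0.00434) and under quantile normalisation (0.66).

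Keap1 (ENSMUSG00000003308, chr9:21229730-21239361, minus strand) had 274, 222, 336 and 222 normalised counts in the bone marrow libraries and 64.4, 55.5, 51.4 and 52.2 in the intestinal ones, in the same order. The groups did not overlap, and the mean went from 263 ± 54.1 to 55.9 ± 5.96 (SD, n = 4 each). It was 4.71-fold lower in the small intestine, a difference of -2.15 ± 0.21 (limma, adjusted p = 8.95e-05). Keap1 shares 510 exon bases with the antisense gene Gm16754, named here after its values were seen, whose 69.6 ± 11.5 and 21.4 ± 9.20 normalised counts (SD, n = 4 each) were also lower in the small intestine, and without a stated strand setting reads of the 2 genes cannot be told apart.

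A difference between 2 genes within a library is not moved by centring, which shifts all values of a library alike, though quantile normalisation can move it. For Nfe2l2 minus Keap1 it was 3.41, 3.72, 3.08 and 3.60 log2 units in the bone marrow libraries and 6.34, 7.01, 6.84 and 6.87 in the intestinal ones. The balance between the gene for NRF2 and the gene for its inhibitor was thus shifted by 3.31 ± 0.20 towards Nfe2l2, with no overlap (exact 2-sided permutation test, p = 0.0286, the smallest that 4 against 4 libraries allow, and 0.0286 after Benjamini-Hochberg adjustment over the 5 gene pairs tested). Each intestinal library was above every bone marrow library for Nfe2l2 and below for Keap1, so this outcome was fixed and adds no support.

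The thioredoxin system gave the largest rises among the 10 genes. Txnrd1 (ENSMUSG00000020250, chr10:82833951-82897712, plus strand), which encodes the cytosolic thioredoxin reductase that uses NADPH to reduce thioredoxin, had 872, 874, 842 and 736 normalised counts in bone marrow and 3652, 4196, 4293 and 5061 in the small intestine. The lowest intestinal library was far above the highest bone marrow library. The mean of 831 ± 64.8 stood against 4301 ± 580.1 (SD, n = 4 each), a 5.18-fold higher level with a difference of 2.36 ± 0.19 (limma, adjusted p = 2.87e-05).

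Srxn1 (ENSMUSG00000032802, chr2:152105516-152111376, plus strand) encodes sulfiredoxin, which returns overoxidised peroxiredoxins to their active form. It had 26.0, 5.22, 11.5 and 10.2 normalised counts in bone marrow, from as few as 8 reads, and 354, 318, 353 and 360.3 in the small intestine. It was near the limit of detection in bone marrow and evenly expressed in the small intestine, and its change of 26.1-fold was the largest of the 10 genes, from 13.2 ± 8.96 to 346 ± 19.4 (SD, n = 4 each; difference 4.53 ± 0.35, limma, adjusted p = 2.71e-05).

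Prdx1 (ENSMUSG00000028691, chr4:116685544-116700822, plus strand), the abundant cytosolic peroxiredoxin that thioredoxin reduces and sulfiredoxin repairs, did not pass the test. It had 864, 773, 759 and 678 normalised counts in bone marrow and 1875, 1041, 674 and 833 in SI_6, SI_7, SI_10 and SI_11. Only SI_6 and SI_7 exceeded the bone marrow range. The means were 768 ± 76.4 and 1106 ± 535 (SD, n = 4 each), and the difference of 0.42 ± 0.32 had a 95% interval of -0.31 to 1.14 (limma, adjusted p = 0.363). SI_6 and SI_7 were also the libraries with the most epithelial marker counts, and without them the difference was -0.031, with the direction turned. Its difference also turned, to -0.48, when libraries were centred on their median over all genes. The part of epithelial RNA in the value of SI_6 was not tested.

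**Figure D2:**
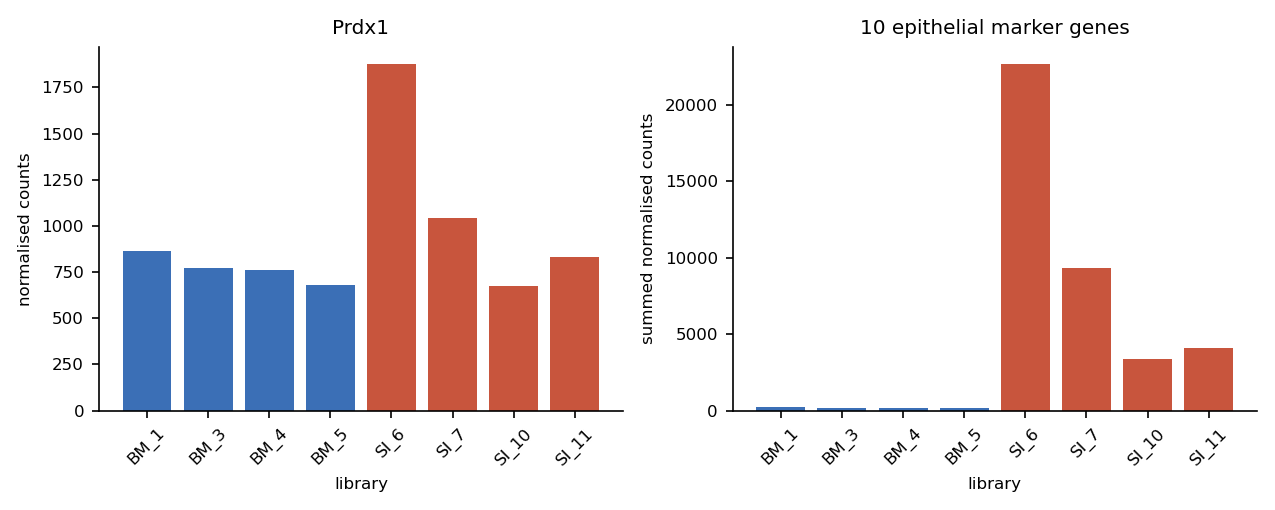
Normalised counts of Prdx1 (left) and summed normalised counts of 10 epithelial marker genes (right) in each library, with bone marrow in blue and small intestine in red, both axes from 0. SI_6 is the highest library in both panels, with 1875 counts of Prdx1 and 22655 of the epithelial markers, and SI_7 is next in both.

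Within a library, Srxn1 minus Prdx1 on the deposited scale was -4.87, -6.50, -5.66 and -5.63 in bone marrow and -2.39, -1.70, -0.92 and -1.20 in the small intestine. This scale narrows differences at the low bone marrow counts of Srxn1. The gap between the repair enzyme and its substrate was narrower in every intestinal library than in any bone marrow library, by 4.11 ± 0.46 (exact 2-sided permutation test, p = 0.0286, adjusted over the 5 pairs 0.0286). Leaving out 1 library at a time moved this shift between 3.83 and 4.39, and on log2 ratios of normalised counts plus 1 it was 4.39. Srxn1 rose by far more than Prdx1 ranged across all libraries, so the lack of overlap was fixed too and adds no support.

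The subunits of glutamate-cysteine ligase, which catalyses the rate-limiting step of glutathione synthesis, were both at lower values in the small intestine, and by unequal amounts. The catalytic subunit Gclc (ENSMUSG00000032350, chr9:77754535-77794485, plus strand) had 633, 648, 816 and 632 normalised counts in bone marrow and 535, 448, 347 and 476 in the small intestine. The groups did not overlap, yet with means of 682 ± 89.6 and 452 ± 78.6 (SD, n = 4 each) the difference of -0.60 ± 0.21 missed the threshold (limma, adjusted p = 0.0538). It passed in 10 of 15 alternative settings and its adjusted p ranged from 0.00381 to 0.131. Among the fits without 1 library, Gclc was called lower without BM_5 (adjusted p = 0.0389), SI_6 (0.0249) or SI_10 (0.0355), all by limma, and without both SI_6 and SI_7 it was called lower at -0.73 (limma, adjusted p = 0.0438).

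The modifier subunit Gclm (ENSMUSG00000028124, chr3:122245557-122270732, plus strand) lowers the amount of glutamate that the enzyme needs and its feedback inhibition by glutathione. It had 766, 786, 636 and 827 normalised counts in bone marrow and 243, 229, 217 and 206 in the small intestine. Each intestinal library was below each bone marrow library, and Gclm was 3.37-fold lower, with means of 754 ± 82.5 and 224 ± 16.0 (SD, n = 4 each; difference -1.73 ± 0.18, limma, adjusted p = 0.00013). Its exons share bases with Gm17494 and Gm6061, at most 296 with either. Gm17494, named after its values were seen, had 32.1 ± 9.71 and 44.0 ± 12.4 normalised counts and passed in neither direction. Gm6061 is a processed pseudogene on the same strand that is not analysed here, so the counts of Gclm are uncertain by what it shares.

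Gclm minus Gclc within a library was 0.27, 0.28, -0.36 and 0.39 in bone marrow and -1.12, -0.96, -0.67 and -1.19 in the small intestine. Every intestinal library was below every bone marrow library, so Gclm was lower relative to Gclc, a shift of -1.13 ± 0.21 (exact 2-sided permutation test, p = 0.0286, adjusted over the 5 pairs 0.0286). The values of Gclm and Gclc given above already fix this lack of overlap, so the test adds no support.

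G6pdx (ENSMUSG00000031400, chrX:74409483-74429194, minus strand) encodes glucose-6-phosphate dehydrogenase, the entry enzyme of the pentose phosphate pathway and a main source of the NADPH that both glutathione reductase and thioredoxin reductase consume. It had 5465, 6105, 6234 and 5699 normalised counts in bone marrow and 1265, 1263, 1105 and 1421 in the small intestine. The libraries of a tissue were close to each other and the tissues were far apart, at 5876 ± 356 and 1264 ± 129 (SD, n = 4 each), a 4.65-fold lower level in the small intestine (difference -2.22 ± 0.17, limma, adjusted p = 2.93e-05). Txnrd1, which uses NADPH, and G6pdx, which supplies it, thus differed in opposite directions.

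G6pdx shares 418 exon bases with Ikbkg on the other strand, named here after its values were seen. Ikbkg had 561 ± 87.6 and 528 ± 21.2 normalised counts (SD, n = 4 each) and a difference of -0.07 ± 0.19 (limma, adjusted p = 0.785). The testis paralog G6pd2, which could share reads with G6pdx, was at 6.35 ± 6.47 and 10.1 ± 4.52 (SD, n = 4 each), far below G6pdx in both tissues.

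Hmox1 (ENSMUSG00000005413, chr8:75093621-75100589, plus strand), the inducible haem oxygenase and a classical target of NRF2 that BACH1 represses, was lower in the small intestine. It had 263, 265, 231 and 192 normalised counts in bone marrow and 79.7, 65.2, 87.5 and 91.3 in the small intestine. No library crossed over, and the level was 2.94-fold lower, with means of 238 ± 34.1 and 80.9 ± 11.5 (SD, n = 4 each; difference -1.51 ± 0.20, limma, adjusted p = 0.000543). Its constitutive paralog Hmox2 was at 214 ± 54.4 and 344 ± 99.4 and passed in neither direction (difference 0.67 ± 0.27, limma, adjusted p = 0.0948), but was called higher under quantile normalisation (0.75) and voom (0.64) and turned to -0.23 with centring over all genes. Hmox1 minus Hmox2 went from 0.17 ± 0.21 in bone marrow to -2.01 ± 0.56 in the small intestine (SD, n = 4 each), a shift of -2.18 ± 0.30 without overlap (exact 2-sided permutation test, p = 0.0286, adjusted over the 5 pairs 0.0286). Hmox2 ran from 152 to 284 normalised counts in bone marrow and from 268 to 487 in the small intestine. With the Hmox1 values above, these ranges already fix the lack of overlap, so the pair test adds no support. Erythroid markers were lower in the small intestine too, and their part in the difference of Hmox1 was not tested.

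Sod2 (ENSMUSG00000006818, chr17:13006846-13040063, plus strand) encodes the manganese superoxide dismutase of mitochondria, which is also induced by NF-kappaB. It had 388, 529.5, 539 and 413 normalised counts in bone marrow and 691, 800.2, 1026 and 1054 in the small intestine. The groups did not overlap, and the 1.91-fold higher level, from 467 ± 78.1 to 893 ± 176 (SD, n = 4 each), was the smallest change that was called (difference 0.92 ± 0.23, limma, adjusted p = 0.0125). Centred on the median over all genes, the difference was 0.02 ± 0.46 and the call was lost. It held with centring over genes with at least 10 reads (0.86, limma, adjusted p = 0.0437) and under quantile normalisation (0.93).

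The cytosolic dismutase Sod1 had a difference of -0.24 ± 0.22 (limma, adjusted p = 0.462), and was called lower with centring over all genes (-1.14). Within a library Sod2 minus Sod1 was -1.76 ± 0.32 in bone marrow and -0.59 ± 0.53 in the small intestine (SD, n = 4 each). The shift of 1.16 ± 0.31 towards Sod2 was without overlap (exact 2-sided permutation test, p = 0.0286, adjusted over the 5 pairs 0.0286).

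**Figure D3:**
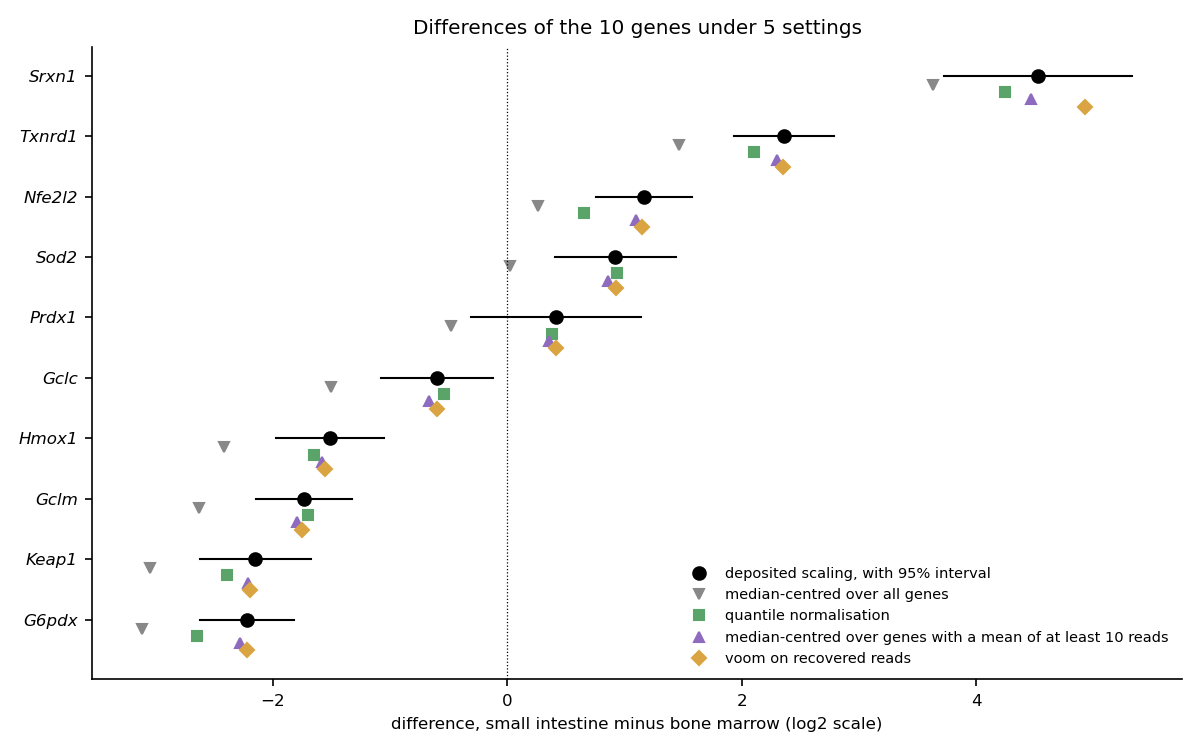
Difference of each of the 10 genes, small intestine minus bone marrow on the log2 scale (x axis). Black dots with lines are the reported values with 95% intervals, and coloured symbols are the values under 4 other settings. Centring on the median over all genes (grey) moves every gene to lower values and takes Prdx1 from 0.42 to -0.48, while the other genes keep their sign.

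Of the 8 calls, 6 held under each of the 15 alternative settings tried, those of Keap1, Hmox1, Gclm, Txnrd1, Srxn1 and G6pdx. In the setting that moved values most, centring on the median over all genes, the median difference of all genes was -0.53 in place of 0.37, and 29.5% in place of 63.2% of all calls were towards higher values. Quantile normalisation gave 45.8%. Without SI_6 and SI_7 all 8 calls remained.

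Divided by exon length, the levels could be ordered within a tissue. In bone marrow G6pdx was the highest of the 10 genes at 1908 ± 116 normalised counts per kb, above 99.3% of protein-coding genes, followed by Nfe2l2 at 759 ± 27.4 and Prdx1 at 253 ± 25.1 (SD, n = 4). Next came Gclc at 181 ± 23.8, then Hmox1 at 136 ± 19.5, Gclm at 119.8 ± 13.1 and Txnrd1 at 117 ± 9.15, of which neighbours overlapped. Keap1 at 56.1 ± 11.5 and Sod2 at 46.7 ± 7.80 overlapped as well, and Srxn1 was last at 4.70 ± 3.18.

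In the small intestine the order began with Nfe2l2 at 1710 ± 226 normalised counts per kb and Txnrd1 at 607 ± 81.9, above 98.7% and 96.0% of protein-coding genes. G6pdx, next at 410.3 ± 41.9, overlapped with Prdx1 at 363 ± 176. Srxn1 at 123 ± 6.87 and Gclc at 119.9 ± 20.9 overlapped, as did Gclc and Sod2 at 89.2 ± 17.6, and below them lay Hmox1 at 46.2 ± 6.59 and Gclm at 35.6 ± 2.55, which overlapped too. Keap1 was last, at 11.9 ± 1.27 (SD, n = 4 throughout). Nfe2l2, Txnrd1, Srxn1 and Sod2 stood higher in this order than in bone marrow, and the other 6 genes, among them Prdx1, stood lower. The values of Sod2 are low for its count because its annotated exons add up to 10008 bases, long isoforms included.

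**Figure D4:**
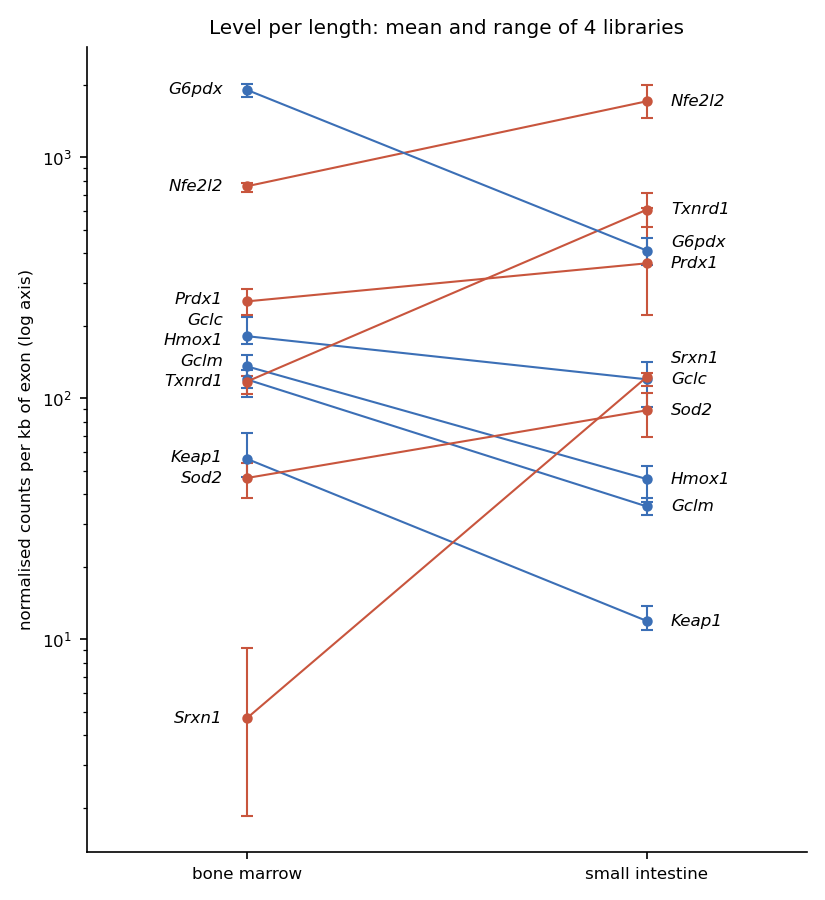
Normalised counts per kb of exon (y axis, log scale) of the 10 genes in bone marrow and small intestine. Dots are means and bars the range of 4 libraries, with red lines for genes of higher mean in the small intestine and blue lines for genes of lower mean. Srxn1 rises from 4.70 to 123, while G6pdx falls from 1908 to 410.3 and Keap1 from 56.1 to 11.9.

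A wider list of 80 genes of the same pathway was grouped by role. Of these, 75 had a mean of at least 10 reads, 29 were called higher and 24 lower in the small intestine, 27 were neither, and the median difference was 0.01, beside 0.37 for all genes and 0.12 for genes with at least 10 reads. The counts of 29 and 24 of 80 are near the shares of 34.6% and 28.6% among genes with at least 10 reads. In 35 of the 80 genes SI_6 was the highest intestinal library (43.8%), beside 33.9% of genes with at least 10 reads and 4 of the 10 genes above.

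Among 14 regulators, 5 were higher, 4 lower and 5 neither, with a median difference of 0.18. The small MAF proteins, which pair with NRF2 on DNA, differed among themselves. Maff had 13.4 ± 3.54 and 749 ± 176 normalised counts and the largest rise of the group (SD, n = 4 each; difference 5.46 ± 0.26, limma, adjusted p = 2.47e-06). Mafk, named here after its values were seen, was also higher, at 140 ± 9.07 and 738 ± 69.7 (SD, n = 4 each). Its difference was 2.37 ± 0.17 (limma, adjusted p = 1.98e-05). Mafg was lower, at 906 ± 77.6 and 558 ± 21.9 (SD, n = 4 each; limma, adjusted p = 0.0123). Nfe2, the haematopoietic relative of Nfe2l2, had the largest fall at -1.20 ± 0.19. Cul3, the scaffold of the ligase that KEAP1 serves, was lower by a small amount (-0.58 ± 0.17, limma, adjusted p = 0.0305). Bach1, the repressor that competes with NRF2 at Hmox1, was at 375 ± 58.8 and 292 ± 16.1 (SD, n = 4 each) and did not pass (limma, adjusted p = 0.203), except with centring over all genes (-1.25).

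Of 24 glutathione genes 11 were higher, 8 lower and 5 neither, with a median of 0.24, and on the deposited scale the group held both extremes of the wider list. Slc7a11, the cystine carrier that supplies the cysteine for glutathione, had 64.4, 79.6, 71.8 and 106 normalised counts in bone marrow and 21327, 28415, 26663 and 25814 in the small intestine. It was 318-fold higher, with a difference of 8.26 ± 0.22 (limma, adjusted p = 1.81e-07), while Gclc and Gclm, the enzyme that uses this cysteine, were not higher. Gstm1, a glutathione transferase, went the other way, from 19716, 16705, 18256 and 14429.5 to 324, 258, 168 and 175, a 74.6-fold lower level (difference -6.24 ± 0.26, limma, adjusted p = 1.34e-06). Neither gene overlapped between the tissues.

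Of 11 genes of the thioredoxin group 5 were higher, 2 lower and 4 neither, with a median of 0.13. Sesn2, a stress-induced sestrin, rose the most, from 38.4 ± 11.1 to 620.0 ± 109, and Prdx5 fell the most, from 4073 ± 514 to 1785 ± 279 (SD, n = 4 each; differences 3.91 ± 0.25 and -1.19 ± 0.20, limma, adjusted p = 1.05e-05 and 0.00187). Txn1, the thioredoxin that Txnrd1 reduces, was at 5382, 5629, 5183 and 4610.3 in bone marrow and 5086, 2840.1, 2096 and 2908 in the small intestine, with SI_6 within the bone marrow range and the others below it. Its difference of -0.76 ± 0.28 did not pass (limma, adjusted p = 0.0674), and without SI_6 and SI_7 it was -1.07 and passed (limma, adjusted p = 0.00934), as it did under each of the 3 other scalings and voom (-0.77 to -1.66). The mitochondrial reductase Txnrd2 was higher by 0.77 ± 0.24 (limma, adjusted p = 0.0345), and the call was lost under quantile normalisation (0.51), with centring over genes with at least 10 reads (0.70) and with centring over all genes, where the direction turned (-0.13). Txnrd3 and Prdx2 passed in neither direction (-0.02 ± 0.28 and -0.12 ± 0.22).

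All 7 further NADPH genes were called, 2 higher and 5 lower, with a median of -1.73. Among genes with at least 10 reads the shares were 34.6% and 28.6%, and whether these 7 genes depart from them was not tested. Pgls, which acts directly after G6pdx in the pentose phosphate pathway, fell the most, from 552 ± 84.5 to 88.9 ± 17.2 (SD, n = 4 each; difference -2.59 ± 0.22, limma, adjusted p = 4.34e-05). Pgd, Tkt, Idh1 and Idh2 were the others that were lower, at differences of -1.44, -1.84, -1.73 and -2.09, named here after their values were seen. The malic enzyme Me1 had the largest rise, from 1.19 ± 1.41 to 38.6 ± 10.3 (SD, n = 4 each; difference 3.68 ± 0.43, limma, adjusted p = 0.000271), at low counts, and Taldo1 was higher by 0.84, which turned to -0.06 and lost the call with libraries centred on their median over all genes. The call of Taldo1 held with centring over genes with at least 10 reads (0.77) and under quantile normalisation (0.56).

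Among 8 genes of haem and iron handling 1 was higher, 3 were lower and 4 neither, with a median of -0.28. The one that rose was Fth1, the heavy chain of ferritin, with 2554, 2229.7, 2418 and 1828 normalised counts in bone marrow and 36563, 39969.9, 40933 and 46754 in the small intestine (18.2-fold, difference 4.19 ± 0.19, limma, adjusted p = 2.04e-06). Its direction was thus opposite to that of Hmox1, another NRF2 target. Slc48a1, a carrier of haem, fell the most, from 1232 ± 87.1 to 196 ± 8.68 (SD, n = 4 each; difference -2.63 ± 0.17, limma, adjusted p = 9.97e-06).

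Of 4 genes that act on superoxide and peroxide, the 1 that was called was catalase, Cat, from 1466 ± 120.1 to 4603 ± 899 (SD, n = 4 each; difference 1.63 ± 0.20, limma, adjusted p = 0.000345), and the call was lost with libraries centred on their median over all genes (0.73). The call of Cat held with centring over genes with at least 10 reads (1.57) and under quantile normalisation (1.29). The group's median was 0.70. The 12 quinone and carbonyl genes had 4 higher, 2 lower and 6 neither, with a median of 0.91. Nqo1, the quinone reductase often used as a readout of NRF2 and also a target of the aryl hydrocarbon receptor, had 3.06, 4.56, 3.83 and 3.72 normalised counts in bone marrow and 327, 272, 270.2 and 382 in the small intestine (82.4-fold, difference 5.47 ± 0.20, limma, adjusted p = 7.16e-07). Osgin1, an oxidative stress-induced growth inhibitor, rose the most on the deposited scale (by normalised counts its 64.9-fold rise was below that of Nqo1), from 17.4 ± 6.87 to 1129.6 ± 179, and Akr1b10 fell the most, from 229 ± 38.1 to 131 ± 8.66 (SD, n = 4 each; differences 5.80 ± 0.29 and -0.77 ± 0.19, limma, adjusted p = 2.65e-06 and 0.0141). Hmox1 and Nqo1, which are commonly read together, thus differed between the tissues in opposite directions.

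**Figure D5:**
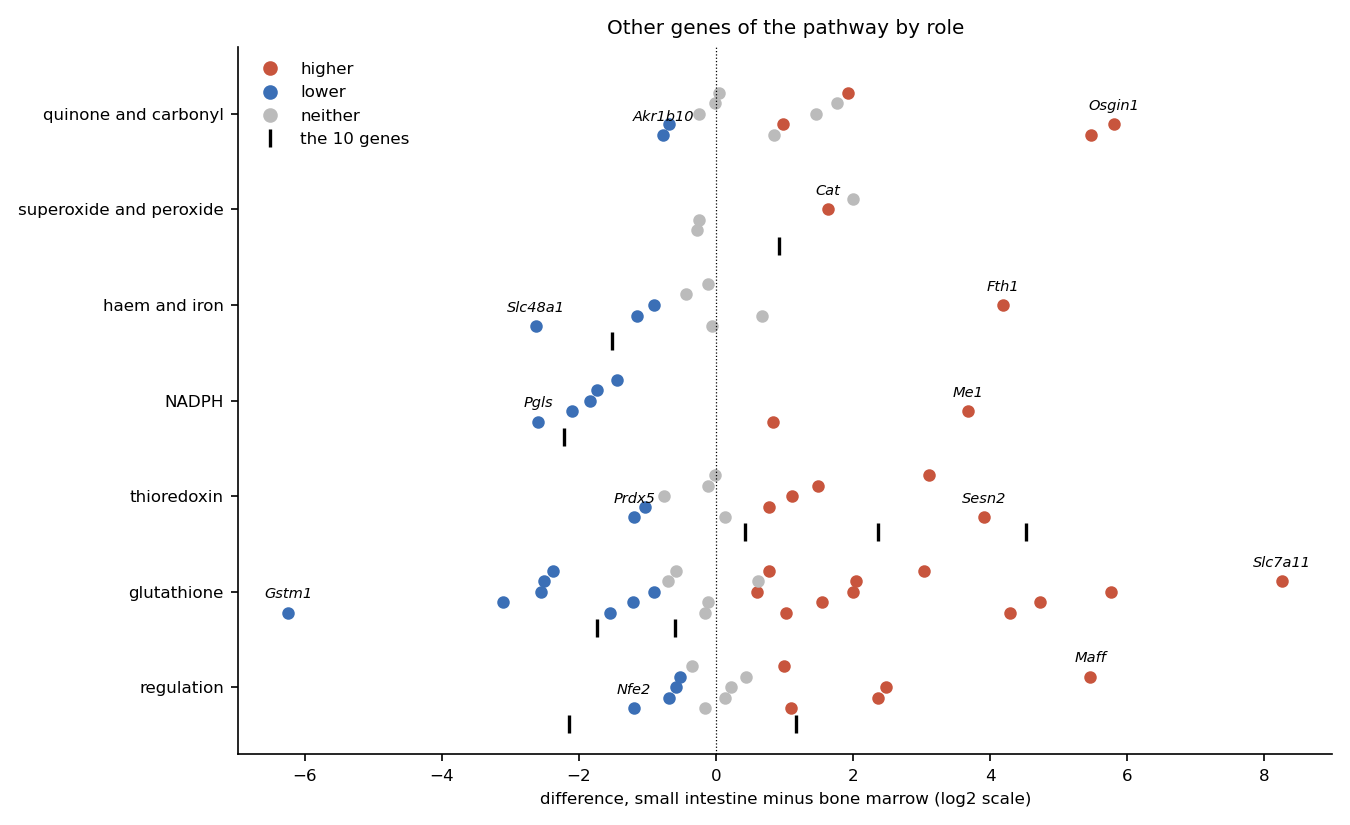
Differences of the 80 further genes, small intestine minus bone marrow on the log2 scale (x axis), by role (rows). Each dot is a gene, red where called higher, blue where called lower and grey where neither, the genes of largest called change in each row are named, and black ticks are the 10 genes of the opening. In the NADPH row 5 of 7 genes are lower, beside 28.6% of genes with at least 10 reads. The glutathione row spans -6.24 to 8.26.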

How the data were processed

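RNA from 8 sorted samples was amplified into cDNA and read from single ends. The authors aligned reads to GRCm38 with a public pipeline, counted them per gene and deposited log2-scale values from the variance stabilising transformation of DESeq2, run in R 4.0.3 per the submitters' processing notes. The aligner, the strand setting and the handling of multi-mapped reads are not stated in the labels or methods used here. From the lowest deposited value, 0.92971568, the transformation was inverted. Multiplied by size factors of 0.721 to 1.53, 100% of values were whole reads within 0.05. These reads gave the normalised counts, and where counts are low a step of 1 on the deposited scale is more than a doubling.

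Tissues were compared with limma 3.58.1 in R 4.3.3 (constant prior, no covariate, 4 against 4 libraries). The 5 gene pairs were compared by exact permutation over 70 assignments with scipy 1.17.1. The labels list separate samples, and the study used 4 mice per tissue. Chi-square per degree of freedom between libraries of a tissue was 10.25 to 86.54, so none agreed within counting noise. All 38392 gene identifiers were found in GENCODE M21, the source of gene coordinates and exon lengths, and 38000 had the same symbol. Promoter windows came from RefSeq.

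The 10 genes, the wider list and the marker lists were chosen with earlier results of these data known. Named were the 10 genes, per role the largest called rise and fall, partners in pairs, Nqo1, Txn1, Cul3, Bach1, Mafg and Slc7a11, paralogs that could share reads, and per marker list the highest gene and any without reads. Gm16754, Gm17494, Ikbkg, Mafk, the remaining NADPH genes and the genes named only in the closing section were added after their values were seen. Alternatives were 3 other scalings, a filter on a mean of at least 10 reads, a prior that follows the level, voom on the recovered reads, leaving out each library, and leaving out SI_6 and SI_7. This last one and the centring over genes with at least 10 reads were chosen after seeing the data.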

Additional observations from a re-analysis of the deposited data

Results flagged for a closer look

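In 3 of 44 groups of 4 libraries examined, 1 library lay apart from the other 3 by Dixon's criterion, which compares its gap to the nearest library with the group's whole range. Chance gives about 1 in 20 such groups. Gclc in BM_4 was the highest bone marrow value, with a gap of 0.906 of the range (816 normalised counts, beside 632 to 648 in the other 3). Gclm minus Gclc in BM_4 was the lowest bone marrow value, with a gap of 0.849 (-0.36, beside 0.27 to 0.39), and it contains the same Gclc value. Srxn1 in SI_7 was the lowest intestinal value, with a gap of 0.845 (318 normalised counts, beside 353 to 360.3). Without BM_4 the difference of Gclc between the tissues was -0.51 (limma, adjusted p = 0.131), and Gclm minus Gclc shifted by -1.30.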

How the results depend on the processing

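Of 150 values, the 10 genes under 15 alternatives each, 136 kept their direction and their side of the threshold, 10 passed only in the alternative (all Gclc), 2 lost the call and 2 turned direction. With libraries centred on their median over all genes, 2 of the 10 genes and 15 of the 80 genes of the wider list were called higher, in place of 4 and 29, 6 of the 8 calls remained, Prdx1 turned to -0.48, and Nfe2l2 (0.26, limma, adjusted p = 0.678) and Sod2 (0.02) lost the call. In that setting the median of all genes itself moved from 0.37 to -0.53, and 4285 genes were higher and 10216 lower. Quantile normalisation gave 5954 and 7032, in place of 8465 and 4937. Without SI_6 and SI_7 Prdx1 turned to -0.031 (limma, adjusted p = 0.912). Leaving out 1 library at a time gave 4 to 4 genes higher and 4 to 5 lower of the 10, 23 to 29 higher and 20 to 26 lower of the 80, and kept all 8 calls. The range for Prdx1 was 0.13 to 0.62, with the lowest value without SI_6, and for Gclc -0.69 to -0.48. The shifts of the 5 gene pairs kept their direction without any 1 library, where 4 against 3 cannot go below p = 0.0571 in the exact test, and on log2 ratios of normalised counts plus 1, where all had p = 0.0286 (exact permutation test). No paired analysis was possible because the labels of the tissues share no replicate number. Low read counts of the genes themselves limit the bone marrow values of Srxn1, Nqo1, Me1 and Gpx2, among others.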

Other observations

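Members of a pair of families are given here that were chosen after their values were seen. Among the glutathione peroxidases, which reduce peroxides with glutathione, Gpx1 was lower in the small intestine, from 12789 ± 1465 to 4386 ± 559 normalised counts, and so was the secreted Gpx3, from 489 ± 89.4 to 90.1 ± 9.90 (SD, n = 4 each; differences -1.54 and -2.38, limma, adjusted p = 0.000346 and 4.3e-05). Gpx4, which acts on lipid peroxides, had a difference of 0.61 (limma, adjusted p = 0.0524), which turned to -0.29 with libraries centred on their median over all genes and passed as higher under quantile normalisation (0.68), with voom (0.61) and without SI_6 and SI_7 (0.81). Gpx2, the peroxidase of gut epithelium, had 443, 139, 73.3 and 87.7 normalised counts in SI_6, SI_7, SI_10 and SI_11 and at most 0.957 in bone marrow, the same order of libraries as for the summed epithelial markers, and the part of epithelial RNA was not tested.

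The ferritin chains were unlike each other. Fth1 was 18.2-fold higher in the small intestine, whereas the light chain Ftl1 was at 7949.8, 7073, 7455 and 5408 normalised counts in bone marrow and 5419.6, 6419, 6416 and 7210.1 in the small intestine, with overlapping groups and a difference of -0.12 ± 0.20 (limma, adjusted p = 0.655). Ftl1 was lower under quantile normalisation (-0.82, limma, adjusted p = 0.0037). Both ferritin genes have near-identical pseudogene copies, and with the counting of shared reads not stated their counts are uncertain.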
